A study of Mus musculus with 16 samples.

Results

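The windows around 3 genes for antigen-processing proteases, Ctsl, Ctss and Prss16, were described in ATAC-seq libraries of medullary thymic epithelial cells (mTECs) from mouse thymus. ATAC-seq marks open chromatin by where the Tn5 transposase inserts. Members were all regions of the deposited table that lay wholly within chr13:64360000-64570000 (Ctsl), chr3:95250000-95440000 (Ctss) or chr13:22000000-22190000 (Prss16) of the mm9 build. These were 111 of 250313 regions, each 500 bp long: 52 in the Ctsl window, 17 in the Ctss window and 42 in the Prss16 window. The cells were sorted as negative for DAPI and CD45, positive for EpCAM and UEA, and low for Ly51, and were divided by MHC class II level into mTEChi (high) and mTEClo (low). All mice were C57BL/6 and 4 weeks old. There were 8 groups of 2 libraries: mTEChi and mTEClo of Aire+/+, Aire-/-, Brg1+/+ and Brg1-/- mice. Aire is the autoimmune regulator of mTECs and Brg1 is an ATPase of the SWI/SNF chromatin remodelling complex. Brg1+/+ libraries carry the description NOCRE, and no label names the promoter that drives a Cre. The labels do not say whether replicate libraries are from separate mice. The p-values below therefore reflect only library-to-library spread, which may be technical.

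Thymic epithelial cells present self peptides on MHC class II molecules to developing CD4 T cells. Lysosomal proteases cut the invariant chain that occupies the class II groove and produce the peptides that replace it. Cathepsin L (Ctsl) does this in cortical thymic epithelium, and cathepsin S (Ctss) does it in B cells, dendritic cells and macrophages. Prss16 encodes the thymus-specific serine protease of cortical thymic epithelium, which acts in the selection of CD4 T cells.

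The windows also hold other genes. In the gene order of GRCm38.p6, the nearest protein-coding neighbours of Ctsl are Prxl2c and Cdk20, those of Ctss are Ctsk, which encodes the related protease cathepsin K, and Hormad1, and those of Prss16 are Pom121l2 and the histone gene H2ac12. That build differs from the mm9 build of the regions, so no region was placed at a promoter, exon or intron, and no level below is assigned to a protease gene. The markers of the sorted cells were not analysed here for the same reason. In these bulk libraries, a lower signal from fewer cells with an open region and from less opening per cell cannot be told apart.

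The 250 bases before the annotated transcription start of Ctsl and of Ctss are shown, since the windows of these proteases are compared below. Both are from RefSeq, GRCm38.p6, written 5′ to 3′ on the gene's strand. Whether transcription starts there in these cells was not tested. The Ctsl sequence lies at chr13:64370521-64370770 on the minus strand and the Ctss sequence at chr3:95526536-95526785 on the plus strand. Capitals mark matches to a searched motif.
Ctsl: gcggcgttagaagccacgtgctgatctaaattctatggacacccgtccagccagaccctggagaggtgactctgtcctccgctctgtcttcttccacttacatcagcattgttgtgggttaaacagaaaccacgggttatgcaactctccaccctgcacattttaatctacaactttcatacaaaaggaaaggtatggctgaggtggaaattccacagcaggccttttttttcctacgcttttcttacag
Ctss: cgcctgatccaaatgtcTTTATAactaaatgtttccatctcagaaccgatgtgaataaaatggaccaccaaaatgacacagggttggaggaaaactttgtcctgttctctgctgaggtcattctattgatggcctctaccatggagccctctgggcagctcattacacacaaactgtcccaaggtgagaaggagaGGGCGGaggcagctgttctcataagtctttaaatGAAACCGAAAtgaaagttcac
The motifs searched on both strands were the GC box GGGCGG, the CCAAT box CCAAT, the AP-1 motif TGANTCA, the interferon regulatory factor pair (GAAA, any 2 bases, GAAA), the TATA box TATAAA, the cAMP response core TGACGT and the ETS core CCGGAA. The Ctss sequence held the interferon regulatory factor pair as GAAACCGAAA, 21 to 12 bases before the start, and 2.98% of 32851 promoter sequences of this length held that motif. It also held the GC box 55 to 50 bases before the start, a motif found in 32.7% of promoters. A TATA box lay on the opposite strand 233 to 228 bases before the start, and 12.4% of promoters held one. The Ctsl sequence held none of these letters in this window. The other motifs were found in 33.8% (CCAAT), 6.75% (TGANTCA), 6.47% (TGACGT) and 12% (CCGGAA) of promoters. These matches describe letters only.

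Signal was compared as deposited, on the authors' own scale. Library medians ranged from 8.51 to 19.8 while the 99th percentiles ranged only from 213.7 to 217.3, and depth is unknown. A signal of 0 was listed in 3 libraries, for 3 values among the members. Regions with a mean signal under 7.48, the 10th percentile, were not tested, which left 102 of the 111 members: 50 of 52 for Ctsl, 15 of 17 for Ctss and 37 of 42 for Prss16. Across the table the log2 signal of mTEChi was shifted upward against mTEClo, by a median of 0.33 as a log2 fold change over 225281 regions, and 27.1% of regions were called higher and 10.6% lower. Quantile scaling, cyclic loess and re-centring on library medians brought that median to -0.017, 0.031 and -0.10. With them, 16.5%, 17.6% and 14.5% of all regions were called higher, and 17.5%, 15.8% and 20.2% lower.

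The 3 windows differed in how many regions they held and how the signal was spread over them. The Ctsl window held 24.8 regions per 100 kb, the Prss16 window 22.1 and the Ctss window 8.95. Among stretches of the same width that held any region, the median was 17 regions at the Ctsl width and 16 at the others. Of those stretches, 92.6% held fewer regions than the Ctsl window, 88.7% fewer than the Prss16 window and 52.0% fewer than the Ctss window. Mean signal over the 16 libraries ranged from 5.97 to 175.2 in the Ctsl window (median 15.8), from 3.04 to 234.2 in the Prss16 window (median 23.7) and from 4.55 to 535.6 in the Ctss window (median 21.1), against 14.2 for the median region of the table. The Prss16 window held 7 regions with a mean over 100, the Ctsl window 3 and the Ctss window 1. That single Ctss region, chr3:95392490-95392989, carried 62.0% of the signal of its window and ranked 63 in the series.

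**Figure D1:**
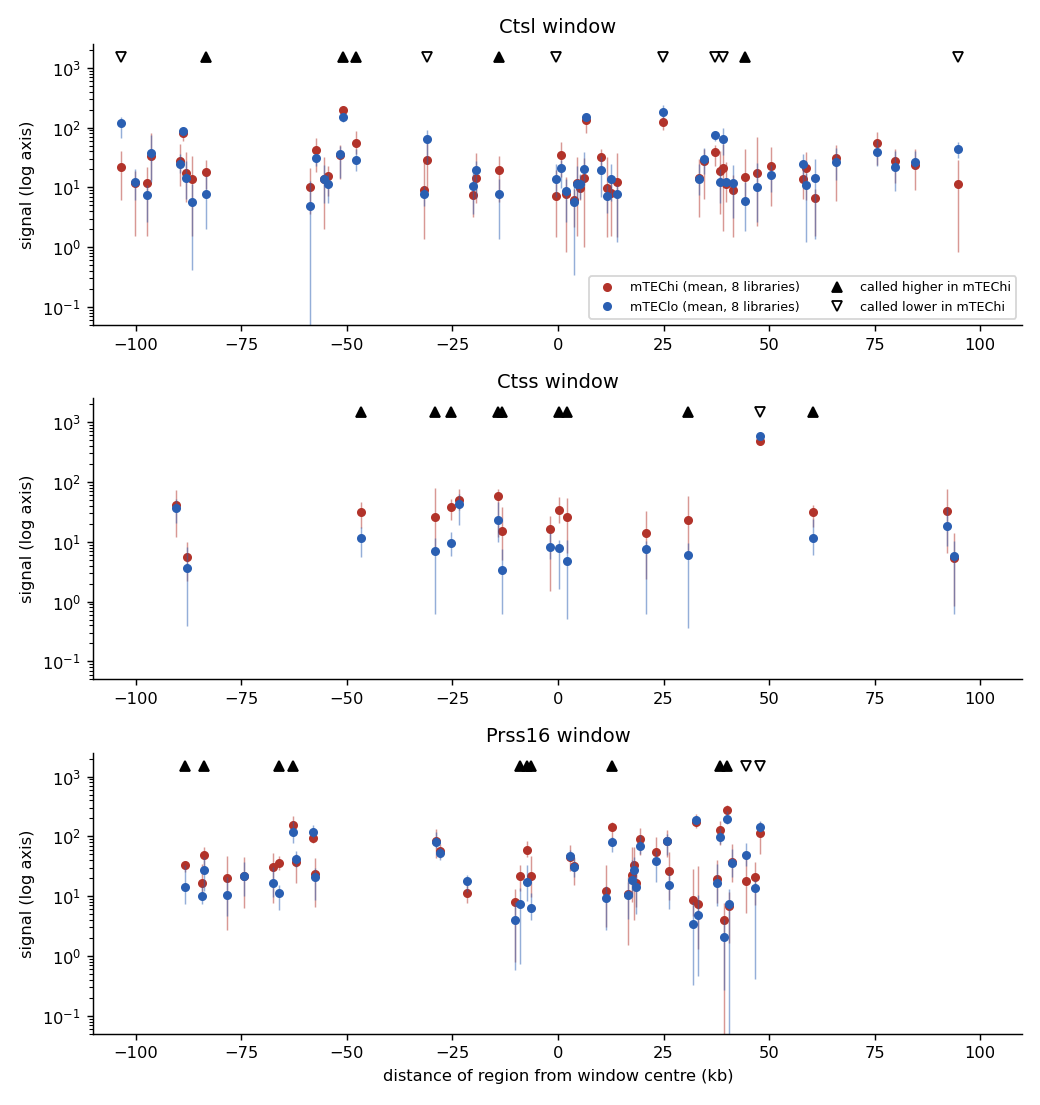
Mean signal of each member region (log axis) against its distance from the window centre in kb, for 8 mTEChi and 8 mTEClo libraries; vertical lines run from the lowest to the highest library and triangles mark regions called higher or lower in mTEChi. In the Ctss window 9 regions carry upward triangles and the strongest, 47.7 kb from the centre, carries a downward one.

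Most regions of the Ctss window were more open in mTEChi than in mTEClo, while its strongest region was less open. Averaged over the 4 genotypes, limma called 9 of 15 tested Ctss regions higher in mTEChi (60%) and 1 lower, against the 27.1% and 10.6% of all regions. The window's median was a log2 fold change of 1.38, and 14 of 15 regions were positive. The 9 called regions had log2 fold changes from 1.30 to 2.25 and spanned 107.3 kb, in which 13 members lay. All 9 were also called higher under each of the 3 rescalings, with window medians of 0.94, 1.04 and 0.95.

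Region chr3:95345015-95345514, 0.3 kb from the window centre, had a signal of 21.0 at the lowest, 28.6 at the median and 56.8 at the highest in mTEChi, and of 1.65, 8.52 and 10.6 in mTEClo. Every mTEChi library was above every mTEClo library, and the log2 fold change was 2.02 (SE 0.35, limma adjusted p = 2.32e-05). Region chr3:95319333-95319832 separated the sorts in the same way, at 23.3, 36.3 and 52.6 in mTEChi against 5.77, 9.29 and 14.7 in mTEClo (log2 fold change 1.88, SE 0.30, limma adjusted p = 7.48e-06). Over all regions, 5.15% had all 8 mTEChi libraries above all 8 mTEClo libraries, and 2 of the 15 Ctss regions did.

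The highest fold change of the window belonged to chr3:95346844-95347343, at 2.25 (SE 0.42, limma adjusted p = 6.37e-05). Its mTEChi libraries were spread from 6.43 to 53.0 with a median of 29.0, and its mTEClo libraries from 0.508 to 10.9 with a median of 4.67. The 4 mTEChi libraries of the Aire line, at 34.9 to 53.0, were all above the 4 of the Brg1 line, at 6.43 to 23.0. Those of the Brg1 line overlapped mTEClo. The split by line was seen after the values were known, and the share of all regions with such a split was not counted. Between the wild types alone, limma called 0 Ctss regions in mTEChi, with a smallest limma adjusted p of 0.383. Region chr3:95375480-95375979 had 6.43, 20.2 and 59.4 in mTEChi against 0.364, 6.15 and 9.53 in mTEClo, with a log2 fold change of 1.68 (SE 0.40, limma adjusted p = 0.00114). Its sorts overlapped only at the low end of mTEChi. Region chr3:95331441-95331940 had 4.92, 10.2 and 38.7 against 0.629, 2.13 and 7.70, also with overlap (log2 fold change 1.89, SE 0.48, limma adjusted p = 0.00226). Region chr3:95330452-95330951 was called higher (1.30, SE 0.30, limma adjusted p = 0.000997), but the difference was -0.39 in Aire+/+, where its 2 mTEChi libraries read 67.5 and 12.2.

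The strongest Ctss region, chr3:95392490-95392989, read 417 to 599 in mTEChi with a median of 471, and 545 to 669 in mTEClo with a median of 579. Its mean was 482.2 ± 55.3 (SD, n = 8) in mTEChi and 589.0 ± 40.1 (SD, n = 8) in mTEClo. The sorts overlapped, since Aire-/- mTEChi replicate 2 was above several mTEClo libraries, and the log2 fold change was -0.29 (SE 0.063, limma adjusted p = 0.000446). The call was lost with cyclic loess. The other strong Ctss region, chr3:95321365-95321864, did not pass the test, with 50.9 in mTEChi against 43.5 in mTEClo (log2 fold change 0.25, limma adjusted p = 0.405), and its sign turned under quantile scaling and re-centring.

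**Figure D2:**
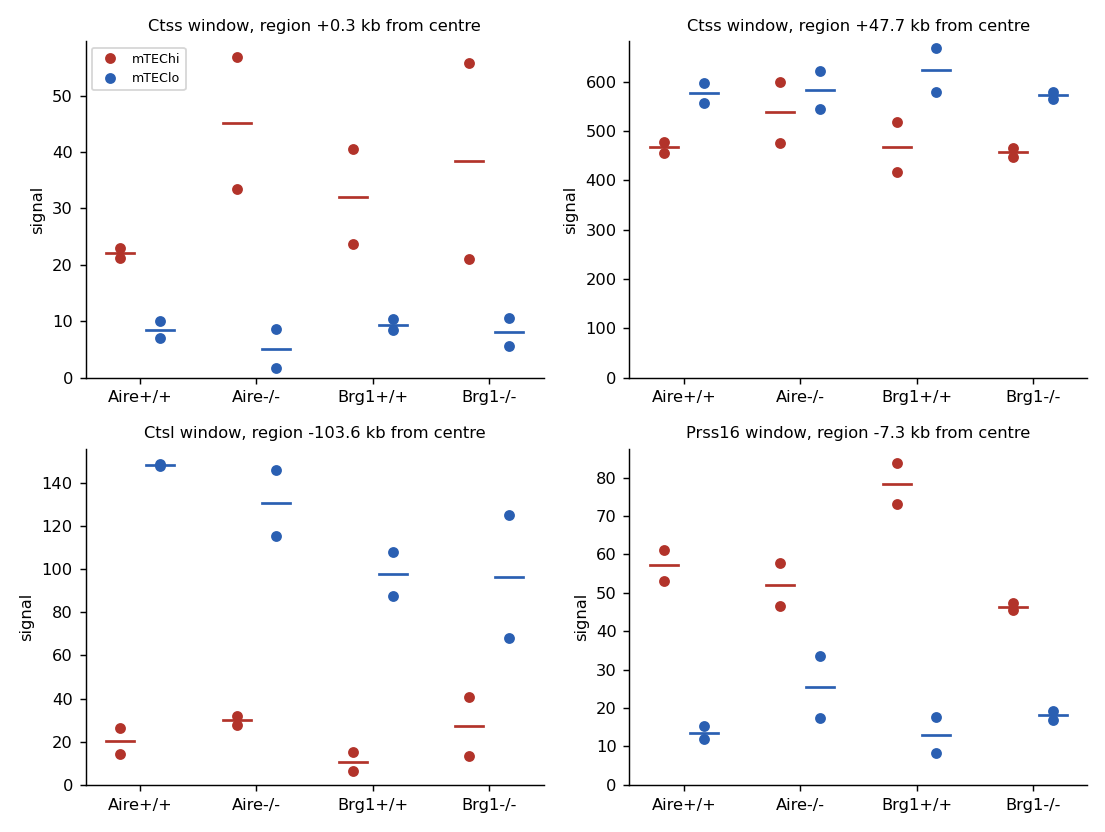
Signal of 4 member regions by genotype; each point is 1 library and each bar the mean of 2. The Ctss region at 0.3 kb and the Prss16 region at -7.3 kb are higher in every mTEChi library, the Ctsl region at -103.6 kb is higher in every mTEClo library, and the strongest Ctss region at 47.7 kb is lower in mTEChi with some overlap.

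The largest differences of the Ctsl window were lower in mTEChi. Of 50 tested regions, limma called 7 lower in mTEChi (14%, against 10.6% of all regions) and 5 higher (10%, against 27.1%), so that the share of lower calls was near that of the table. The median log2 fold change was -0.13, against 0.33 for the table. All 7 lower calls had a negative log2 difference in each of the 4 genotypes, which choosing regions by the mean of these differences favours. In Brg1-/-, chr13:64433629-64434128 had means of 31.9 in mTEChi and 29.5 in mTEClo, so its mean signal was not lower in mTEChi there. The 7 lower calls were also made under the 3 rescalings, whereas none of the 5 higher calls was made under all 3. With those rescalings the window median was -0.51, -0.43 and -0.56.

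Region chr13:64361194-64361693, near the edge of the window, read 6.25, 20.7 and 40.8 (lowest, median, highest) in mTEChi and 67.9, 120 and 149 in mTEClo. No library of one sort reached the other, and the log2 fold change was -2.52 (SE 0.24, limma adjusted p = 1.0e-09). Region chr13:64559438-64559937, at the other edge, also separated the sorts, at 0.825, 5.78 and 28.6 in mTEChi against 30.5, 42.5 and 56.7 in mTEClo (log2 fold change -2.45, SE 0.43, limma adjusted p = 2.72e-05). Of the 50 Ctsl regions, 3 had all 8 mTEChi libraries below all 8 mTEClo libraries, against 1.93% of all regions. The third of them was chr13:64501954-64502453, at 22.7 to 50.1 in mTEChi against 60.4 to 88.1 in mTEClo. Region chr13:64503798-64504297 was lower by a log2 fold change of -1.99 (SE 0.31, limma adjusted p = 6.42e-06) and chr13:64433629-64434128 by -1.25 (SE 0.24, limma adjusted p = 0.000101), both with overlap between the sorts. Region chr13:64464203-64464702 read 1.46 to 19.6 in mTEChi against 6.96 to 24.4 in mTEClo (log2 fold change -1.10, limma adjusted p = 0.0296) and was called in 7 of the 16 fits that left out 1 library.

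The 3 strongest Ctsl regions differed less between the sorts. The first, chr13:64413790-64414289, read 147, 208 and 233 in mTEChi against 125, 150 and 168 in mTEClo, with overlap between the sorts. It was called higher by 0.38 (SE 0.11, limma adjusted p = 0.00566), but re-centring gave -0.049. Region chr13:64489672-64490171 was called lower by -0.59 (SE 0.12, limma adjusted p = 0.000333), at 90.1 to 166 in mTEChi against 145 to 240 in mTEClo. Region chr13:64471436-64471935 did not pass the test, at 135.5 ± 33.4 against 153.1 ± 10.1 (SD, n = 8 each; log2 fold change -0.22, limma adjusted p = 0.197).

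The other 4 Ctsl regions called higher were weaker in signal, and the sorts overlapped in each. Region chr13:64416824-64417323 read 36.2 to 86.1 in mTEChi against 19.0 to 43.2 in mTEClo (log2 fold change 0.93, limma adjusted p = 0.0019) and was called in 1 of the 3 rescalings. Region chr13:64381496-64381995 read 9.42 to 28.5 against 2.04 to 15.4 (1.18, limma adjusted p = 0.00957). Region chr13:64450762-64451261 read 5.62 to 33.7 against 1.38 to 13.6 (1.23, limma adjusted p = 0.0116). None of the 3 rescalings kept the last 2 of these calls or that of chr13:64509126-64509625, which read 6.25 to 43.3 against 1.84 to 12.5 (1.07, limma adjusted p = 0.0305) and was called in 9 of the 16 fits that left out 1 library.

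In the Prss16 window, limma called 10 of 37 tested regions higher in mTEChi (27.0%) and 2 lower (5.41%), shares close to or under those of all regions. Its median log2 fold change of 0.18 turned negative under the 3 rescalings, at -0.13, -0.014 and -0.25, while 6 of the 10 higher calls were made under all 3. The higher calls included 3 neighbouring regions within 2.98 kb, from chr13:22085796 to 22088772. The middle one, chr13:22087408-22087907, read 45.5, 55.4 and 83.8 in mTEChi against 8.42, 17.2 and 33.5 in mTEClo. Its sorts did not overlap, and its log2 fold change of 1.74 was the largest of the window (SE 0.25, limma adjusted p = 2.03e-06). The regions on either side had log2 fold changes of 1.71 (SE 0.43, limma adjusted p = 0.00185) and 1.56 (SE 0.36, limma adjusted p = 0.000919).

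A second Prss16 region without overlap was chr13:22028806-22029305, at 27.9, 34.7 and 47.9 in mTEChi against 5.89, 11.9 and 15.7 in mTEClo (log2 fold change 1.63, SE 0.30, limma adjusted p = 5.32e-05). The strongest Prss16 region, chr13:22134737-22135236, read 207, 277 and 336 in mTEChi against 162, 177 and 265 in mTEClo. Its sorts overlapped, and it was called higher by 0.48 (SE 0.091, limma adjusted p = 9.91e-05), but re-centring gave 0.046 and no call. Region chr13:22032078-22032577, also strong, was called higher by 0.43 (limma adjusted p = 0.0133), at 126 to 217 in mTEChi against 77.8 to 178 in mTEClo. That call was lost with re-centring (0.0034) and without Brg1+/+ mTEClo replicate 1, Brg1-/- mTEChi replicate 1 or Brg1-/- mTEClo replicate 1. Region chr13:22006453-22006952 was called higher by 1.31 (SE 0.29, limma adjusted p = 0.000566), at 25.3 to 38.5 in mTEChi against 7.55 to 32.9 in mTEClo. In the other direction, chr13:22139362-22139861 read 5.30, 12.6 and 45.4 in mTEChi against 31.8, 46.0 and 77.3 in mTEClo (log2 fold change -1.65, SE 0.32, limma adjusted p = 0.000119). The other lower call, chr13:22142664-22143163, read 50.8 to 176.5 against 116.4 to 184.7 (log2 fold change -0.38, limma adjusted p = 0.047) and was called in 5 of the 16 fits that left out 1 library. Strong region chr13:22127382-22127881 did not pass the test, at 172.3 ± 35.4 against 188.5 ± 16.3 (SD, n = 8 each; log2 fold change -0.15, limma adjusted p = 0.264).

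**Figure D3:**
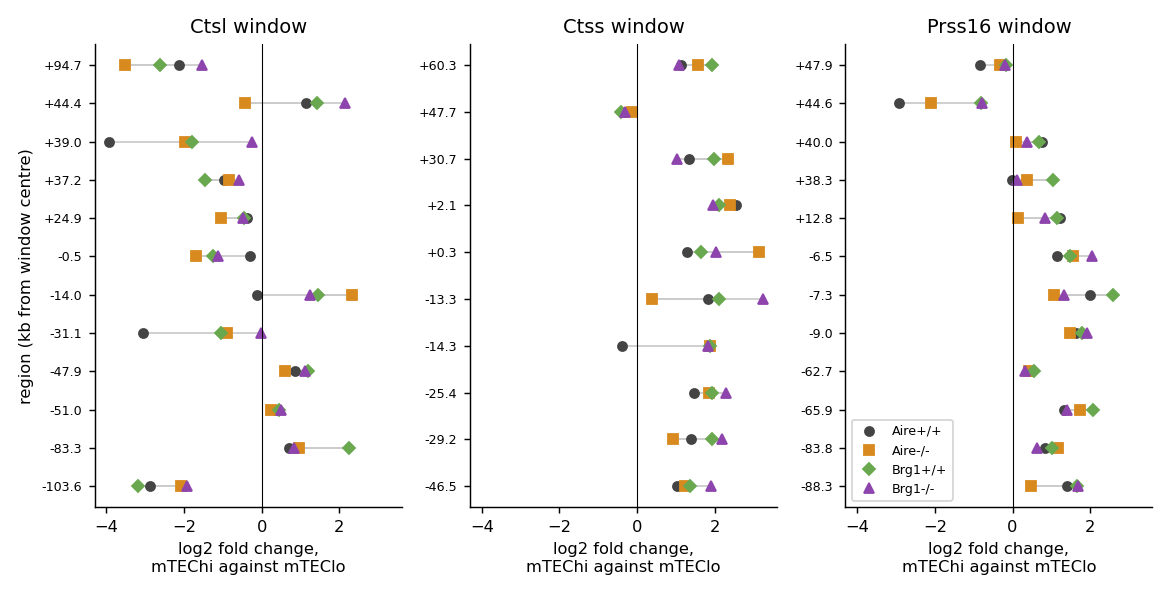
Log2 fold change of mTEChi against mTEClo within each genotype, for every region called over the 4 genotypes, by its distance from the window centre in kb. In the Ctss window 8 of the 9 regions called higher are positive in all 4 genotypes. Regions were called on the mean of the same 4 differences, which favours a shared sign.

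Within single genotypes, with 2 libraries against 2, fewer members were called. The counts over the 102 tested members were 4 higher and 5 lower in Aire+/+ (all regions 5.14% and 3.65%), 4 and 5 in Aire-/- (7.15% and 4.22%), 10 and 4 in Brg1+/+ (9.21% and 3.75%), and 5 and 1 in Brg1-/- (6.61% and 1.5%). The Ctss window median was positive in each genotype, at 1.02 in Aire+/+, 1.05 in Aire-/-, 1.63 in Brg1+/+ and 1.69 in Brg1-/-, where the medians of all regions were 0.16, 0.096, 0.42 and 0.62. Of the regions called higher over the 4 genotypes, the difference was positive in all 4 for 8 of 9 in the Ctss window, 9 of 10 in the Prss16 window and 3 of 5 in the Ctsl window. Of those called lower it was negative in all 4 for 1 of 1, 2 of 2 and 7 of 7. These regions were called on the mean of the same 4 differences, which favours a shared sign. The share among all calls of the table was not counted. limma called no member in the test of whether the sort difference changed with Aire (0.000444% of all regions called) or with Brg1 (0% called). At an unadjusted p under 0.05, 10 and 5 of the 102 passed those tests, where 5.15% and 7.09% of all regions did.

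Summed over a window, the signal of the Ctss regions without the strongest one was 449.1 ± 104.1 (SD, n = 8) in mTEChi and 208.2 ± 47.2 (SD, n = 8) in mTEClo. The libraries ranged from 305.7 to 611.9 and from 119.3 to 275.5, so the sorts did not overlap. The region left out is the only Ctss region called lower, and the sum without it was not rescaled. With the strongest region included the sums were 931.4 ± 130.7 and 797.2 ± 39.1 (SD, n = 8), which overlapped. The whole Ctsl window summed to 1489 ± 214 in mTEChi and 1642 ± 212 in mTEClo, and the whole Prss16 window to 2162 ± 278 and 1800 ± 203 (SD, n = 8), both with overlap. Scaling libraries by their median turned the log2 difference of the whole sums from 0.21 to -0.25 for Ctss and from 0.26 to -0.20 for Prss16, and quantile scaling brought them to 0.073 and 0.099. These sums are descriptions without a test.

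**Figure D4:**
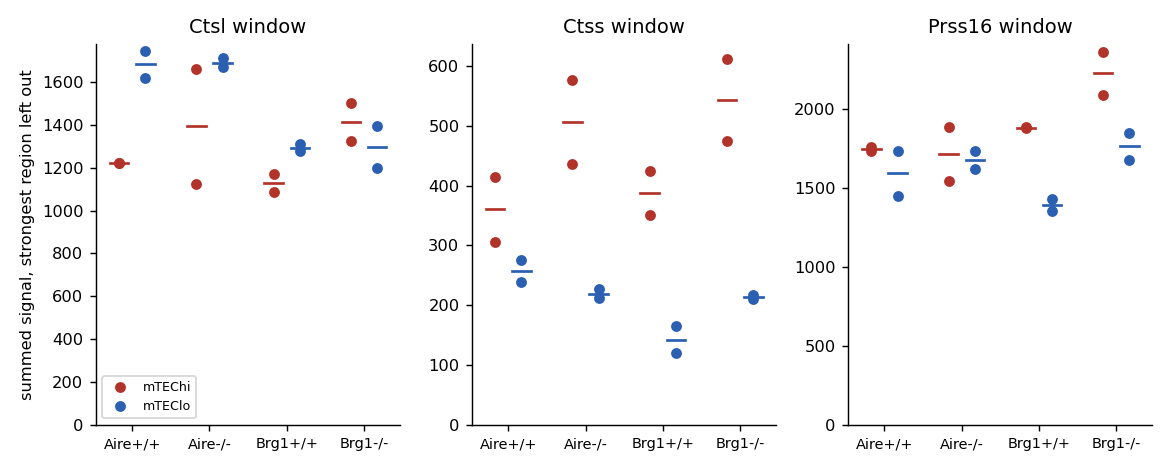
Summed signal of each window without its strongest region, by genotype; each point is 1 library and each bar the mean of 2. Ctss sums lie between 305.7 and 611.9 in mTEChi and between 119.3 and 275.5 in mTEClo.

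Loss of Aire gave no called member in either sort. limma called 0 of 102 members in mTEChi, where 0.0209% of all regions were called, and 0 in mTEClo, where 0% were. At an unadjusted p under 0.05, 16 members passed in mTEChi and 1 in mTEClo, where 10.2% and 2.5% of all regions did. The member with the smallest p in mTEChi was Ctsl region chr13:64433629-64434128, which read 9.64 and 8.76 in Aire+/+ and 32.6 and 60.6 in Aire-/-. The genotypes did not overlap there, with a log2 fold change of 2.16 (95% interval 1.18 to 3.13, limma adjusted p = 0.0970), and in mTEClo both genotypes read between 76.6 and 90.5. It was called in 1 alternative only, without Aire+/+ mTEChi replicate 1. For the Prss16 window the smallest p was at chr13:22112804-22113303, at 3.95 and 5.76 in Aire+/+ against 28.2 and 32.0 in Aire-/- (log2 fold change 2.42, 95% interval 1.25 to 3.6, limma adjusted p = 0.123). For the Ctss window it was at chr3:95254291-95254790, at 16.2 and 25.4 against 47.3 and 72.5 (log2 fold change 1.48, 95% interval 0.37 to 2.60, limma adjusted p = 0.344). In all 3 the Aire-/- mTEChi libraries lay above both Aire+/+ libraries. Each region was picked for the smallest p of its window, which favours such a separation, so it is not a further result. In mTEClo the smallest p of each window was at chr13:64509126-64509625 (Ctsl, log2 fold change 1.52), chr3:95331441-95331940 (Ctss, 1.81) and chr13:22118060-22118559 (Prss16, 1.09), each with a limma adjusted p of 1.

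Loss of Brg1 gave no called member either. limma called 0 of 102 members in mTEChi (0.0257% of all regions) and 0 in mTEClo (0.000444%), and at an unadjusted p under 0.05 there were 17 and 6, where 10.7% and 6.15% of all regions passed. The smallest p in mTEChi was at Ctsl region chr13:64409251-64409750, at 9.87 and 32.1 in Brg1+/+ against 2.01 and 1.99 in Brg1-/- (log2 fold change -2.66, 95% interval -4.20 to -1.12, limma adjusted p = 0.202). Prss16 region chr13:22027184-22027683 went the other way, at 13.5 and 7.65 in Brg1+/+ against 53.1 and 37.9 in Brg1-/- (log2 fold change 2.04, 95% interval 0.84 to 3.23, limma adjusted p = 0.206). The smallest p of the Ctss window in mTEChi was at chr3:95254291-95254790, at 12.2 and 58.6 against 48.5 and 50.3, which overlapped (log2 fold change 0.84, limma adjusted p = 0.605). In mTEClo the strongest Prss16 region, chr13:22134737-22135236, had the smallest p of its window, at 162 and 165 against 218 and 265 (log2 fold change 0.55, 95% interval 0.18 to 0.92, limma adjusted p = 0.654). In the other windows the smallest p in mTEClo was at Ctsl region chr13:64433629-64434128 (log2 fold change -1.06, limma adjusted p = 0.781) and at Ctss region chr3:95375480-95375979 (1.79, limma adjusted p = 0.77). None of these passed the adjusted threshold. Averaged over both sorts, limma again called 0 members for Aire (0% of all regions) and 0 for Brg1 (0.00444%), with 7 and 15 members at an unadjusted p under 0.05, where 6.58% and 9.62% of all regions passed. The smallest adjusted p there was 0.312 in limma, at the strongest Prss16 region for loss of Brg1 (log2 fold change 0.40).

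The intervals for the strongest Ctss region were the narrowest given here. For chr3:95392490-95392989 the log2 fold change of Aire-/- against Aire+/+ was 0.19 (95% interval -0.06 to 0.45) in mTEChi and 0.01 (-0.25 to 0.27) in mTEClo. For Brg1-/- against Brg1+/+ it was -0.02 (-0.28 to 0.23) in mTEChi and -0.12 (-0.38 to 0.14) in mTEClo. The median over the Ctss regions was 0.33 in mTEChi and -0.08 in mTEClo for loss of Aire, against -0.0015 and 0.00045 for all regions. For loss of Brg1 it was 0.63 in mTEChi and 0.76 in mTEClo, against 0.22 and 0.048. In that comparison 12 of 15 Ctss regions were positive in mTEChi and 9 in mTEClo, where 61.4% and 52.9% of all regions were. At an unadjusted limma p under 0.05, 0 and 1 of the 15 passed, where 10.7% and 6.15% of all regions did. Some of these mTEClo values were very low in single libraries. Brg1+/+ replicate 2 read 0.621, 0.629, 0.630 and 0.629 in the regions starting at chr3:95315585, 95331441, 95346844 and 95365712. Brg1+/+ replicate 1 read 0.364 in that at 95375480, and Brg1-/- replicate 1 read 0.508 in that at 95346844. How far the median of 0.76 rests on such values was not tested. The summed Prss16 signal was 2538 ± 221 in Brg1-/- and 2143 ± 24.0 in Brg1+/+ mTEChi, and 2002 ± 157 and 1554 ± 54.8 in mTEClo (SD, n = 2 each), with both knockout libraries above both wild-type libraries in each sort. Scaling libraries by their median turned that difference from 0.24 to -0.24 in mTEChi, and gave 0.19 in place of 0.36 in mTEClo, as log2 differences. The log2 difference of the whole Ctss sum for loss of Brg1 also turned negative with that scaling, in both sorts.

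**Figure D5:**
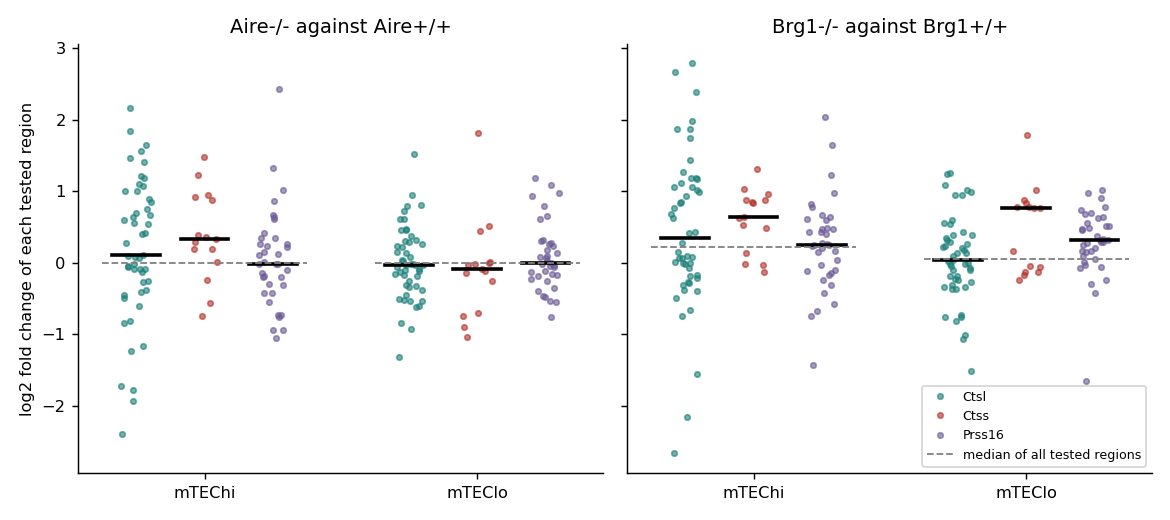
Log2 fold change of each tested member for Aire-/- against Aire+/+ and Brg1-/- against Brg1+/+ in each sort; black bars are window medians and dashed lines the median of all tested regions. On the deposited scale, the Ctss medians for loss of Brg1, 0.63 and 0.76, lie above the dashed lines at 0.22 and 0.048. In mTEClo some of the Ctss regions have very low values in single libraries. Of the 15 Ctss regions, 12 in mTEChi and 9 in mTEClo are positive, and none is called.

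Between the wild types of the lines, limma called 1 member, and 19 of 102 had an unadjusted p under 0.05 in mTEChi. It called Prss16 region chr13:22112804-22113303 lower in Aire+/+ than in Brg1+/+ mTEChi, where 0.156% of all regions were called and 10.5% had an unadjusted p under 0.05. It read 3.95 and 5.76 in Aire+/+ and 49.8 and 34.9 in Brg1+/+, with a log2 fold change of -2.88 (SE 0.58, limma adjusted p = 0.0206). The Aire-/- libraries, at 28.2 and 32.0, and the Brg1-/- libraries, at 47.9 and 67.3, were all above Aire+/+, and mTEClo libraries of all genotypes read between 14.8 and 46.1. The call was lost when any 1 of the 4 libraries compared was left out. The Aire comparison above uses the same 2 Aire+/+ libraries. In mTEClo limma called 0 members between the wild types (0.0368% of all regions), and 7 members had an unadjusted p under 0.05, where 7.4% of all regions did.

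The regions of the table whose log2 signal was most like that of the strongest member of each window were found by Pearson's r over the 16 libraries, which share the sort, the line and the library scaling. For the strongest Ctsl region they were chr1:108247509-108248008 and chr4:53481790-53482289, both with r = 0.93. For the strongest Ctss region they were chr4:118109773-118110272 (r = 0.93) and chr12:87046379-87046878 (r = 0.91). For the strongest Prss16 region they were chr5:136360451-136360950 (r = 0.92) and chr9:31659240-31659739 (r = 0.91). The median r over the regions searched was 0.17 for the Ctsl region, -0.22 for the Ctss region and 0.19 for the Prss16 region. Each r given is among the highest of a search over many regions, which favours high values, and was not tested.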

How the data were processed

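ATAC-seq was measured in 16 libraries, in 8 groups of 2 taken from the labels. The authors deposited 1 table of signal values for 250313 regions, made with Bowtie2 and MACS2 on mm9, per the submitters' processing notes. Versions, region definition, Tn5 offset, duplicate removal and library scaling are not given in the sources used here. Since these values are not counts, a count model could not be fitted and depth is unknown. Region starts were taken as counted from 0 and are printed counted from 1.

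Signal was analysed as log2(signal + 1), which understates the change of low regions. After leaving out 25032 regions with a mean under the 10th percentile, limma 3.58.1 in R 4.3.3 (trend and robust) was fitted to 225281 regions with 1 mean per group and 8 residual degrees of freedom. P-values were two-sided and Benjamini-Hochberg adjusted over all tested regions, with a threshold of 0.05, and intervals are at 95%. The fit was tested on simulated data. The members and lists were chosen with earlier results of these data known. Regions named were the 3 strongest per window, up to 5 called per direction with the largest fold change, members called in a genotype or line comparison, and otherwise the smallest p per window in each knockout comparison within a sort; other named regions were chosen after their values were seen. A planned permutation test of window sums is not reported, since such a sum is a score over chosen members. Lists of other pathway genes and of cell type markers needed an mm9 annotation and were not run.

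Alternatives were other pseudocounts, filters, scalings, windows, weights and variance settings, fits per line, a replicate block, and leaving out each library. Libraries with the same replicate number did not deviate together, but whether they come from the same mice is not known.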

Additional observations from a re-analysis of the deposited data

Results flagged for a closer look

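Among 66 sets of 8 libraries of one sort at named regions, 5 had a highest or lowest library far from the rest. The rule used takes about 1 in 20 to be so by chance. That share does not allow for unlogged signal, the mixed genotypes or the choice of regions by their values, so it is a rough guide. In mTEClo, Aire+/+ replicate 2 was lowest at the strongest Ctsl region, chr13:64413790-64414289, at 125.06 against 148.01 for the next library. In mTEChi, Aire-/- replicate 2 was highest at Ctss region chr3:95375480-95375979, at 59.364 against 30.039. Aire-/- mTEClo replicate 2 was highest at Prss16 region chr13:22006453-22006952, at 32.904 against 17.94. Brg1-/- mTEChi replicate 2 was highest at Prss16 region chr13:22088273-22088772, at 47.63 against 27.23. Aire-/- mTEClo replicate 1 was highest at Prss16 region chr13:22087408-22087907, at 33.532 against 19.36.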

How the results depend on the processing

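The 9 Ctss regions called higher in mTEChi over the 4 genotypes were called under the 3 rescalings, in the 16 fits without 1 library and in 7 other settings; 8 were counted in the central 100 kb and with a filter at the 50th percentile, which held fewer regions. For the other calls over the 4 genotypes the count moved as follows, and the cause was not tested. Ctsl higher calls (5) were 3 in the central 100 kb, 3 with a filter at the 50th percentile, 1 with quantile scaling, 2 with cyclic loess, 0 with re-centring and 3 at an absolute log2 fold change of at least 1; lower calls (7) were 12, 11 and 14 with the 3 rescalings. The Ctss lower call was lost (0) with cyclic loess, without trend and robust settings, and at that fold change. Prss16 higher calls (10) were 6 in the central 100 kb, 6 with re-centring and 5 at that fold change; lower calls (2) were 1 with a pseudocount of 0.5, 4 with quantile scaling, 5 with re-centring and 1 at that fold change. Of all calls in the table, 71.9% were higher, and 48.4%, 52.7% and 41.8% were with the 3 rescalings. Over all tested regions, the rescalings moved the share called lower from 10.6% to 17.5%, 15.8% and 20.2%. The share called higher moved from 27.1% to 16.5%, 17.6% and 14.5%.

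With the replicate number as a replicate block, Prss16 lower calls were 1, and no other count over the 4 genotypes moved by over 1.5 times. Deviations of libraries with the same number correlated at -0.018 to 0.034. With 2 libraries per group, this cannot tell whether libraries of the same number come from the same mice.

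Within genotypes, Aire+/+ higher calls (4) were 1 with re-centring and 1 without trend; lower calls (5) were 8 with re-centring. Aire-/- higher calls (4) were 7 with a pseudocount of 5, 1 with each rescaling, 8 with array weights and 2 without trend; lower calls (5) were 3 in the central 100 kb and 0 without trend. Brg1+/+ higher calls (10) were 4, 4 and 1 with the rescalings and 6 without trend; lower calls (4) were 2 in the central 100 kb and 2 without trend. Brg1-/- higher calls (5) were 9 with a pseudocount of 5, 3 with the 50th percentile filter, 0 with each rescaling, 2 with array weights and 3 in the Brg1 line alone; the lower call was 0 in the central 100 kb, 2, 2 and 6 with the rescalings and 0 without trend. The line call was 0 with array weights and without trend.

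Leaving out 1 library gave 1 to 3 Prss16 lower calls; 0 to 4 higher and 3 to 5 lower in Aire+/+; 0 to 7 and 1 to 5 in Aire-/-; 2 to 11 and 2 to 5 in Brg1+/+; 0 to 7 and 0 to 2 in Brg1-/-; 0 to 1 for Aire-/- mTEChi; and 0 to 1 for the line. The Ctss region chr3:95254291-95254790 ranged from -0.24 to 1.93 for Brg1-/- mTEChi, and turned without Brg1+/+ mTEChi replicate 1. Ctsl region chr13:64413790-64414289 turned to -0.049 with re-centring, and Ctss region chr3:95321365-95321864 to -0.069 with quantile scaling and -0.19 with re-centring.

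The log2 difference of summed signal between the sorts was 0.21 for Ctss, and 1.07 as a mean of log2 values, 1.11 without the strongest region, -0.25 with library-median scaling and 0.073 with quantile scaling. For Ctsl it was -0.14, and -0.61 with median scaling, -0.40 with quantile scaling and -0.24 in the central 100 kb. For Prss16 it was 0.26, and -0.20 with median and 0.099 with quantile scaling. For Brg1-/- mTEChi, mean log2 values gave 0.47 (Ctsl), 0.60 (Ctss) and 0.35 (Prss16), median scaling -0.20, -0.26 and -0.24, quantile scaling 0.14 for Ctsl, and leaving out the strongest region 0.48 for Ctss. For Brg1-/- mTEClo, median scaling gave -0.18 (Ctsl), -0.14 (Ctss) and 0.19 (Prss16), and Ctss gave 0.56 as mean log2, 0.60 without the strongest region and -0.055 in the central 100 kb. Ctss gave -0.23 without the strongest region for Aire-/- mTEClo, and Prss16 0.089 with median scaling for Aire-/- mTEChi. Depth is unknown, so no detection limit can be given.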
